A study of Mus musculus with 20 samples.

Results

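The transcripts described here are 41 genes of macrophages and other leukocytes, measured in whole hearts of mice fed the lipid-lowering drug fenofibrate. They were taken from the 27670 gene names on the array by symbol, with 3 of them listed under an older symbol (Emr1 for Adgre1, Sfpi1 for Spi1 and Lyzs for Lyz2), and each gene was read from its probe with the brightest heart signal. Of these 41 genes, 35 gave a heart signal well above background on 3 or more arrays and entered the test over 14567 genes. The mice were MuRF1 +/+ or MuRF1 -/-, that is, with or without the muscle ubiquitin ligase MuRF1, the product of Trim63. In both genotypes, 3 hearts came from mice on chow, 4 from mice on chow with 0.05% (w/w) fenofibrate for 3 weeks, and 3 from mice on the same diet for 8 weeks. The chow hearts belong to the 8-week time point, so the 3-week hearts had no control of the same duration, and both responses within a genotype used the same chow hearts. The labels describe the knockout by genotype alone and give no strain, sex, age or litter for the hearts. Each of the 20 arrays set 1 heart (Cy5) against the same reference RNA (Cy3), pooled from whole C57BL/6 pups at postnatal day 1, and a level below is the log2 ratio of heart over that pool. A level therefore tells hearts apart for 1 gene and cannot be set against the level of another gene.

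Macrophages are the most abundant leukocytes of the healthy heart. They clear dying cells, tag debris with C1q, the recognition part of the classical complement pathway, and present peptides on class II molecules to helper T cells. Neutrophils and monocytes enter from the blood, drawn by chemokines, and neutrophils carry large stores of the calgranulins S100a8 and S100a9. Fenofibrate activates PPAR alpha, a nuclear receptor that drives fatty acid oxidation and is known to restrain inflammatory gene expression.

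The macrophage genes were present in these hearts and the lymphocyte receptor genes were not detected above background. Adgre1 (F4/80), Csf1r (the receptor for macrophage colony-stimulating factor), Mpeg1 (perforin-2) and all 3 C1q chains were well above background on all 20 arrays. Cd3e, a chain of the T cell receptor complex, and Cd79a, a chain of the B cell receptor complex, were not well above background on any array; the level of Cd79a lay between -0.12 and 0.12 in all hearts. Spi1 (PU.1, the transcription factor of the myeloid lineage), Itgam (CD11b) and Itgax (CD11c) passed on 2 arrays each and Cx3cr1, the fractalkine receptor, on 1, so these genes were not tested. Cd53, a leukocyte tetraspanin, passed on 8 arrays, Itgb2, the beta chain of the leukocyte integrins, on 15, and Ccr2, the monocyte receptor for Ccl2, on 17. In bulk tissue of this kind, fewer cells of a type and less RNA per cell cannot be told apart.

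Trim63 separated the genotypes in every heart, with levels of 0.79 to 2.85 in MuRF1 +/+ hearts and -1.19 to -0.49 in MuRF1 -/- hearts. The 11 cardiomyocyte genes measured as a tissue check averaged 2.65 to 3.70 in every heart. Between 34.0% and 51.9% of heart probes were well above background, and precision is limited by how many arrays there are. The lowest shares, 34.0% in MuRF1 +/+ 8-week replicate 2 and 34.3% in MuRF1 -/- 3-week replicate 4, set these arrays apart, and results are given with and without them where they decide a value. Sex-linked transcripts differed between the diet groups: the mean level of the Y-linked genes Ddx3y, Eif2s3y and Uty was 0.89 to 1.27 in all chow hearts and -0.97 to -0.18 in all 3-week hearts. At 8 weeks it was -0.62 to -0.35 in the MuRF1 +/+ hearts, and 1.05, -0.56 and 0.95 in the MuRF1 -/- hearts. Xist, the transcript of X inactivation, was -4.24 to -3.49 in all chow hearts and -0.50 to 0.20 in all 3-week hearts. At 8 weeks it was -2.70 to -0.90 in MuRF1 +/+ and -4.05 to -2.72 in MuRF1 -/- hearts. Ddx3y and Eif2s3y were each well above background on all chow arrays, but at 3 weeks on 0 of 4 MuRF1 +/+ and 1 of 4 MuRF1 -/- arrays. The chow and 3-week hearts may thus come from mice of different sex, which the labels do not give. In MuRF1 +/+ mice at both times and in MuRF1 -/- mice at 3 weeks, the Y-linked level and the diet therefore cannot be told apart. At 8 weeks the Y-linked level and the genotype cannot be fully told apart either. The part of this difference in the leukocyte results was not tested beyond a fit that adds the Y-linked level as a covariate.

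**Figure D1:**
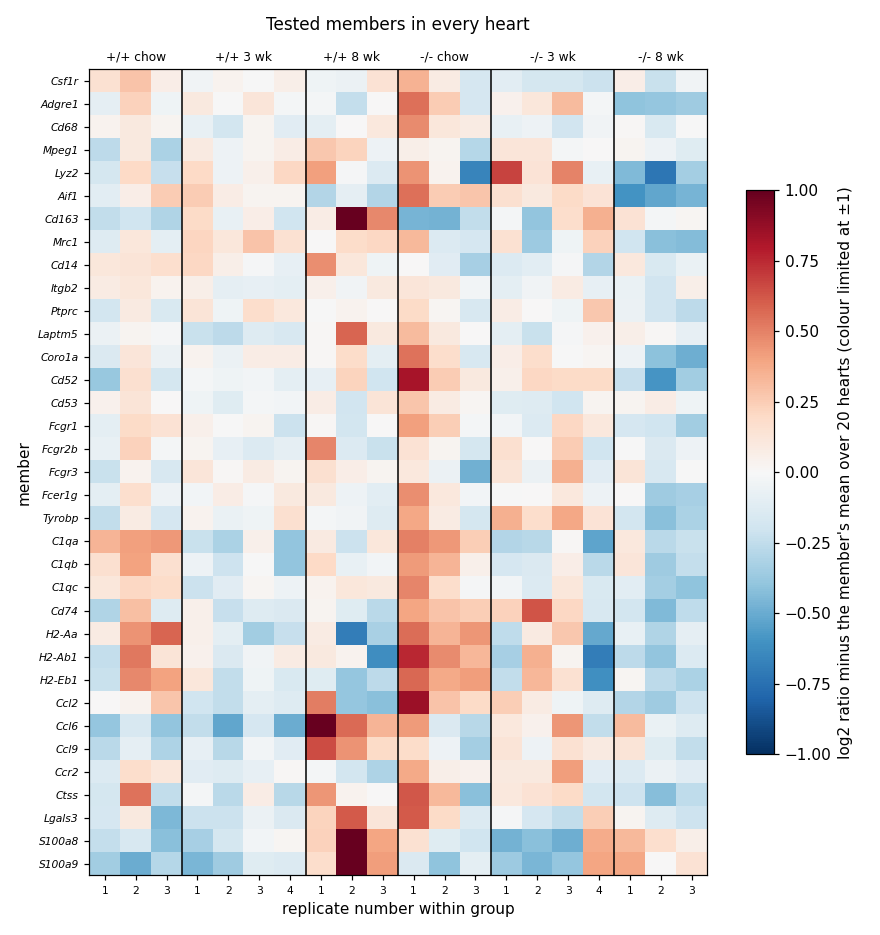
Each tile is 1 of the 35 tested members (rows, grouped by role) in 1 of 20 hearts (columns, by group and replicate number), coloured by the log2 ratio minus the member's own mean over all hearts, with colour limited at ±1. Replicate 1 of the MuRF1 -/- chow group is red in most rows, the 8-week MuRF1 -/- hearts are mostly blue, and replicate 2 of the 8-week MuRF1 +/+ group has the highest level of S100a8, S100a9 and Cd163.

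Members varied among hearts of 1 group by a within-group SD of 0.08 to 0.53 (median 0.18, against 0.14 over all tested genes). Part of that spread ran through most members at once, as the tile plot of all hearts shows. Replicate 1 of the MuRF1 -/- chow group was the highest of its 3 hearts in 33 of 35 members and the highest of all 20 hearts in 20 of them, while replicate 3 of that group was the lowest of the 3 in 30. The mean over the 35 members was 0.20, -0.06 and -0.23 in these chow hearts, and replicate 2 was the highest of the MuRF1 +/+ chow hearts in 29 members. In the knockout, the chow hearts differed from each other in this mean by more than the median responses described below.

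After 8 weeks of fenofibrate, 5 leukocyte genes rose in MuRF1 +/+ hearts and 1 fell. The calgranulins S100a9 and S100a8, the chemokines Ccl6 and Ccl9, which attract monocytes and other myeloid cells, and Cd163, the macrophage scavenger receptor for haemoglobin-haptoglobin complexes, rose by 0.65 to 1.41 on the log2 scale, and the class II alpha chain gene H2-Aa fell. These 6 of 35 tested members compare with 14.0% of all tested genes called in either direction (limma, Benjamini-Hochberg adjusted p under 0.05), 5.26% higher and 8.74% lower. At an unadjusted p under 0.05 there were 12 members, against 32.3% of all genes. The median over the 35 members was 0.00, against 0.03 over all genes, with 17 members higher and 18 lower.

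Ccl6 stood at 0.03, 0.26 and 0.02 in the MuRF1 +/+ chow hearts, at 0.17, -0.10, 0.25 and -0.08 after 3 weeks and at 1.42, 0.98 and 0.76 after 8 weeks. All 3 hearts of the 8-week group lay above all 7 others of the genotype, a difference from chow of 0.95 ± 0.20 (SE) or 1.93-fold (limma adjusted p = 0.00486). Ccl9 had the same order, with -0.64, -0.46 and -0.68 on chow, -0.45, -0.65, -0.40 and -0.48 at 3 weeks and 0.28, 0.08 and -0.18 at 8 weeks. The 8-week hearts again did not overlap the chow or 3-week hearts, and the difference from chow was 0.65 ± 0.13 (limma adjusted p = 0.00436). In MuRF1 -/- hearts neither chemokine gene passed the test: Ccl6 was 0.84, 0.27 and 0.14 on chow and 0.73, 0.35 and 0.29 at 8 weeks, and Ccl9 was -0.19, -0.42 and -0.71 on chow and -0.24, -0.49 and -0.62 at 8 weeks. The response differed from chow there by 0.04 ± 0.20 for Ccl6 and -0.01 ± 0.13 for Ccl9, with overlapping groups.

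S100a9 and S100a8 encode the paired calcium-binding proteins of calprotectin, released by activated neutrophils and monocytes. S100a9 was -4.81, -4.96 and -4.75 in the MuRF1 +/+ chow hearts, -4.92, -4.82, -4.59 and -4.60 at 3 weeks and -4.29, -1.96 and -4.05 at 8 weeks. S100a8 was -2.73, -2.65 and -2.91 on chow, -2.82, -2.67, -2.52 and -2.47 at 3 weeks and -2.26, -1.16 and -2.10 at 8 weeks. The 8-week hearts lay above the chow hearts for both genes, and replicate 2 lay far above the other two. The fitted differences from chow were 1.41 ± 0.39 (SE) for S100a9 (limma adjusted p = 0.0224) and 0.92 ± 0.24 for S100a8 (adjusted p = 0.0157). Without replicate 2 of the 8-week group they were 0.67 (adjusted p = 0.0538) and 0.58 (adjusted p = 0.0886), and neither passed. When MuRF1 -/- 3-week replicate 4 was left out as well, the same 0.67 and 0.58 passed, with limma adjusted p = 0.00378 and 0.00493. In MuRF1 -/- hearts S100a9 was -4.61, -4.87 and -4.56 on chow, -4.83, -4.92, -4.85 and -4.07 at 3 weeks and -4.08, -4.46 and -4.32 at 8 weeks. Its 8-week hearts also lay above all chow hearts there, by 0.39 ± 0.39, which did not pass the test. S100a8 was -2.34, -2.61 and -2.69 on chow, -2.96, -2.91, -2.98 and -2.12 at 3 weeks and -2.17, -2.32 and -2.43 at 8 weeks in the same groups, a difference of 0.24 ± 0.24 at 8 weeks.

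Cd163 was 0.20, 0.24 and 0.14 on chow, 0.63, 0.37, 0.51 and 0.24 at 3 weeks and 0.52, 1.57 and 0.92 at 8 weeks in MuRF1 +/+ hearts. For Cd163 the knockout levels were -0.02, -0.03 and 0.20 on chow, 0.42, 0.05, 0.62 and 0.80 at 3 weeks and 0.59, 0.42 and 0.46 at 8 weeks. The 8-week hearts did not overlap the chow hearts in either genotype, with a difference of 0.81 ± 0.20 in MuRF1 +/+ (limma adjusted p = 0.0132) and 0.44 ± 0.20 in MuRF1 -/- (adjusted p = 0.358). Without replicate 2 of the 8-week group the MuRF1 +/+ difference was 0.53 (adjusted p = 0.0747), and H2-Aa differed by -0.49 (adjusted p = 0.141). Lgals3 (galectin-3, a lectin of activated macrophages) also had no overlap at 8 weeks, with -1.21, -0.82 and -1.31 against -1.60, -1.34 and -1.88 on chow, and a difference of 0.50 ± 0.17 that missed the threshold (adjusted p = 0.0636). In all, 6 members were higher in every 8-week heart than in every chow heart and 2 were lower, against 13.4% and 16.2% of all genes.

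**Figure D2:**
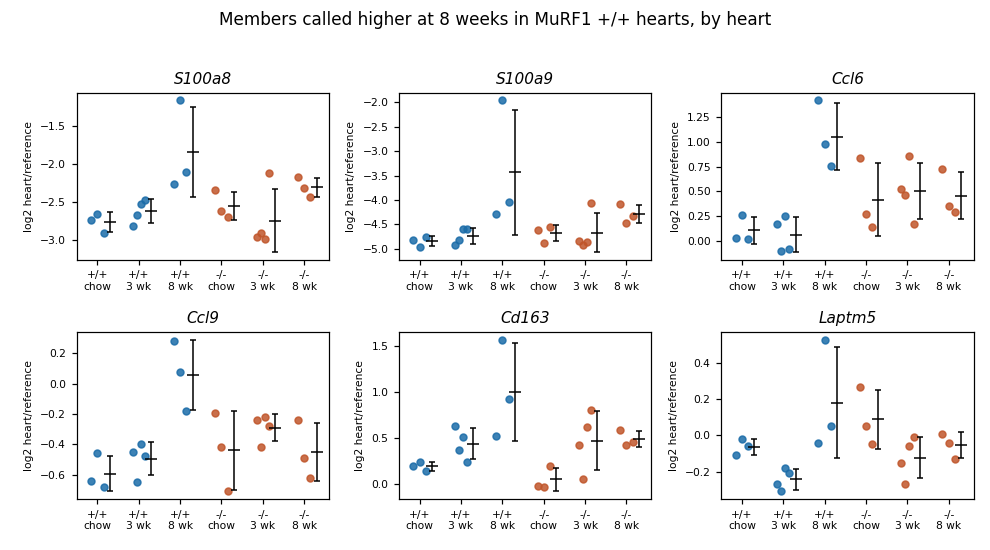
Log2 ratio of heart over reference (vertical axis, a separate range per gene) for the 6 members called higher at 8 weeks in MuRF1 +/+ hearts, against chow or against 3 weeks. Points are single hearts, blue for MuRF1 +/+ and orange for MuRF1 -/-, and bars give mean ± SD (n = 3 on chow, 4 at 3 weeks, 3 at 8 weeks). The 3 blue 8-week points of Ccl6 and Ccl9 lie above all other blue points, and 1 heart lies far above the rest for S100a8, S100a9 and Laptm5.

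Beside these rises, the 15 endothelial genes averaged 0.60, 1.85 and 0.69 in the 8-week MuRF1 +/+ hearts against 0.36 to 0.40 on chow, with the highest value in the same replicate 2, and 7 of them were called higher. The mean of 13 fibroblast and matrix genes was -2.15 to -1.24 at 8 weeks against -2.24 to -2.12 on chow, with 3 called higher. The part of either list in the leukocyte values was not tested. Of 9 other neutrophil genes, Retnlg (0.75 ± 0.20, adjusted p = 0.0178) was the 1 called at 8 weeks, and the list had a median of 0.33. Leaving out 1 heart at a time gave between 2 and 10 calls among the members: 2 without chow replicate 3 (Ccl6 and Ccl9), 3 without 8-week replicate 2 and 10 without 8-week replicate 1. Of all genes 4.35%, 6.47% and 32.8% were called in these fits. No member was called when the Y-linked level was a covariate (0.35% of all genes) or when only the compared groups were fitted (0.371%). Slides were assigned by the scan date of the arrays. Within slides, Ccl6 differed by 0.97 and 1.16 and Ccl9 by 0.76 and 0.74 on the 2 slides that held both groups, while S100a9 differed by 2.79 and 0.67.

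After 8 weeks of fenofibrate in MuRF1 -/- hearts, 4 leukocyte genes fell and none rose. They were Aif1 (IBA1, an actin-bundling protein of macrophages), Cd52, a small surface glycoprotein of leukocytes, Adgre1 and the complement chain gene C1qc. These 4 of 35 compare with 1.83% of all genes called in either direction, 0.851% higher and 0.982% lower, and 20 members had an unadjusted p under 0.05, against 12.7% of all genes. The median of the 35 members was -0.36, against -0.01 over all genes, and 28 of 35 were below chow (80.0%, against 52.4% of all genes). No member differed from chow by more than 1 on the log2 scale. The endothelial mean was 0.32 to 0.43 in these 8-week hearts against 0.31 to 0.50 on chow, and the fibroblast mean -2.40 to -2.29 against -2.28 to -1.77. Their part in the lower leukocyte levels was not tested.

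Aif1 was 0.99, 0.69 and 0.71 in the MuRF1 -/- chow hearts, 0.60, 0.53, 0.63 and 0.57 at 3 weeks and -0.16, -0.08 and -0.03 at 8 weeks. The 8-week hearts lay below every other heart of the study, and the difference from chow was -0.89 ± 0.10 (SE), a 1.85-fold lower level (limma adjusted p = 0.000162). In MuRF1 +/+ hearts Aif1 was 0.33, 0.50 and 0.69 on chow, 0.69, 0.51, 0.46 and 0.46 at 3 weeks and 0.14, 0.35 and 0.14 at 8 weeks, with a difference at 8 weeks of -0.30 ± 0.10 (adjusted p = 0.0554). A second, dimmer Aif1 probe fell in both genotypes, by 0.46 in MuRF1 +/+ (adjusted p = 0.00116) and by 0.38 in MuRF1 -/- hearts (adjusted p = 0.0171). Cd52 was 0.78, 0.21 and 0.06 on chow, 0.01, 0.17, 0.15 and 0.15 at 3 weeks and -0.27, -0.63 and -0.39 at 8 weeks in MuRF1 -/- hearts, without overlap between 8 weeks and chow (-0.78 ± 0.16, adjusted p = 0.0166). Its MuRF1 +/+ levels were -0.42, 0.12 and -0.22 on chow, -0.06, -0.08, -0.07 and -0.14 at 3 weeks and -0.12, 0.18 and -0.24 at 8 weeks, where chow and 8 weeks overlapped (0.11 ± 0.16).

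Adgre1 was 0.57, 0.27 and -0.15 on chow, 0.06, 0.13, 0.33 and 0.00 at 3 weeks and -0.39, -0.37 and -0.34 at 8 weeks in MuRF1 -/- hearts. The 8-week hearts lay close together and below all others, with a difference from chow of -0.60 ± 0.14 (limma adjusted p = 0.0341). MuRF1 +/+ hearts had Adgre1 levels of -0.07, 0.25 and -0.03 on chow, 0.11, 0.01, 0.14 and 0.00 at 3 weeks and 0.00, -0.22 and 0.02 at 8 weeks (-0.12 ± 0.14 at 8 weeks). C1qc was 0.59, 0.28 and 0.09 on MuRF1 -/- chow and 0.00, -0.24 and -0.30 at 8 weeks (-0.50 ± 0.12, adjusted p = 0.0342), and 0.22, 0.31 and 0.29 on chow and 0.14, 0.22 and 0.20 at 8 weeks in the MuRF1 +/+ groups (-0.08 ± 0.12). In all, 15 of 35 members were lower in every 8-week heart than in every chow heart of the knockout, against 14.2% of all genes. Besides the 4 called, they were the C1q chain gene C1qa, all 4 class II genes, Ccl2, Ccr2, Cd68, Mrc1, Fcgr1 and Tyrobp. Cd163 and S100a9 were higher without overlap, against 10.6% of all genes.

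The call of Aif1 held under all 20 alternatives run for it, and the other calls depended on single hearts. Without chow replicate 1, without 8-week replicate 2 and without 8-week replicate 3, Aif1 was the 1 member called. Without chow replicate 2 there were 2 calls, and without chow replicate 3 there were 7 (1.01% of all genes). Over the fits that left out 1 heart, 73 to 148 of all genes were called. Without chow replicate 1 the median was -0.18, with 26 of 35 members below chow. Leaving out 8-week replicate 2, the heart with the low Y-linked level, set hearts with Y-linked levels of 0.95 and 1.05 against chow hearts at 0.89 to 1.14. The median was then -0.33 with 27 of 35 members lower, and Aif1 differed by -0.89 (limma adjusted p = 0.00106). The 1 slide that held both groups had replicate 2 of each, with Y-linked levels of 0.89 on chow and -0.56 at 8 weeks. For this single pair of hearts the median difference was -0.32 with 31 of 35 members lower, and Aif1 differed by -0.77. With the slide as a block 1 member was called (Aif1), under the Y-linked covariate 2 were (Aif1 and Adgre1), and without both arrays that stood apart, 13 were (6.3% of all genes).

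**Figure D3:**
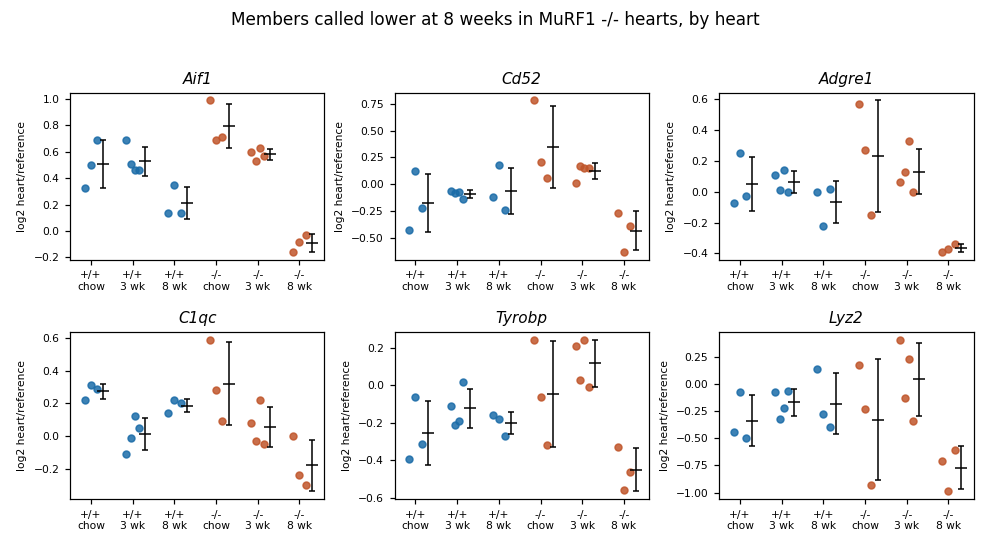
Log2 ratio of heart over reference (vertical axis, a separate range per gene) for 6 members called lower at 8 weeks in MuRF1 -/- hearts, against chow or against 3 weeks. Points are single hearts, blue for MuRF1 +/+ and orange for MuRF1 -/-, and bars give mean ± SD (n = 3 on chow, 4 at 3 weeks, 3 at 8 weeks). The 3 orange 8-week points of Aif1, Cd52, Adgre1, Tyrobp and Lyz2 lie below all other orange points except for Lyz2, where 1 chow heart reached -0.93.

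By its brightest probe no member was called at 8 weeks in both genotypes, whereas the second Aif1 probe was. The difference between the responses was tested directly, and it passed the threshold for none of the 35 members, against 0.00686% of all genes (limma, smallest adjusted p among members 0.217, with 13 members at an unadjusted p under 0.05, against 16.8% of all genes). The MuRF1 -/- response was the lower one for 33 of 35 members (94.3%, against 55.2% of all genes), with a median difference of -0.39, against -0.03 over all genes. The largest difference was that of S100a9 (-1.02 ± 0.55, 95% interval -2.16 to 0.13), followed by Ccl6 (-0.91 ± 0.28, -1.50 to -0.32) and Cd52 (-0.89 ± 0.23, -1.36 to -0.41). For Ccl9 it was -0.66 ± 0.19, with an interval of -1.06 to -0.27. For Aif1 it was -0.59 ± 0.14 by the brightest probe, with an interval of -0.89 to -0.29, and 0.08 ± 0.11 by the second probe. The unadjusted intervals of Ccl6, Cd52, Ccl9 and the brightest Aif1 probe exclude 0 and that of S100a9 includes it, and no adjusted value reached the threshold. Without MuRF1 +/+ 8-week replicate 1, 3 members passed, against 9.69% of all genes, and with arrays weighted by their quality 15 did, against 20.1%. The responses of the 15 endothelial and 13 fibroblast genes had median differences of -0.67 and -0.80, with none called, and their part in the members' difference was not tested. Between chow and 8 weeks the Y-linked level changed unequally in the genotypes. In MuRF1 +/+ hearts it was 1.01 to 1.27 on chow and -0.62 to -0.35 at 8 weeks. In MuRF1 -/- hearts it was 0.89 to 1.14 on chow, and 1.05, -0.56 and 0.95 at 8 weeks. The difference between the responses and this unequal change therefore cannot be fully told apart. A fit that also held this level gave a member median of -0.39, and its part was not tested further.

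**Figure D4:**
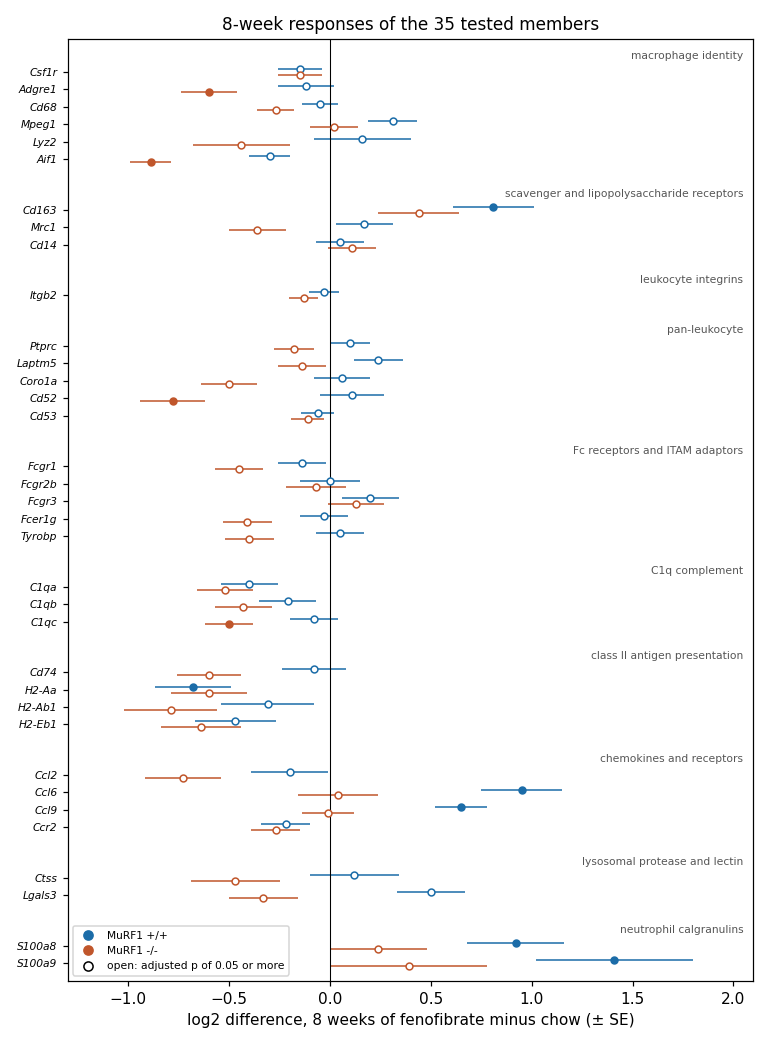
Difference between 8 weeks of fenofibrate and chow (horizontal axis, log2, with SE bars) for the 35 tested members, ordered by role, in MuRF1 +/+ (blue) and MuRF1 -/- hearts (orange). Filled points passed an adjusted p of 0.05 and open points did not; the orange point lies left of the blue one for 33 of 35 members, and the blue filled points on the right are Cd163, Ccl6, Ccl9, S100a8 and S100a9.

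Compared directly between genotypes at 8 weeks, 31 of 35 members were lower in MuRF1 -/- hearts (88.6%, against 55.8% of all genes), with a median of -0.21. No member passed the threshold in limma, against 0.0892% of all genes; the smallest adjusted p was 0.085 and 12 members had an unadjusted p under 0.05, against 21.9% of all genes. That smallest value belonged to Ccl9 (-0.51 ± 0.13), and the next members by p were Mrc1, the mannose receptor of resident macrophages (-0.48 ± 0.14, adjusted p = 0.108), and C1qc (-0.37 ± 0.12, adjusted p = 0.112). Mrc1 was -0.38, -0.20 and -0.18 in MuRF1 +/+ and -0.58, -0.80 and -0.82 in MuRF1 -/- hearts at 8 weeks, without overlap; on chow it was -0.51, -0.27 and -0.48 against -0.06, -0.52 and -0.55, and at 3 weeks -0.17, -0.27, -0.10 and -0.23 against -0.23, -0.75, -0.43 and -0.15. Ctss (cathepsin S, the protease that trims the class II invariant chain) was -0.08, -0.49 and -0.52 against -0.73, -0.95 and -0.78 at 8 weeks (-0.46 ± 0.22), after -0.70, 0.02 and -0.77 against 0.10, -0.20 and -0.94 on chow and -0.54, -0.79, -0.45 and -0.80 against -0.42, -0.38, -0.33 and -0.71 at 3 weeks. Together 12 of 35 members were lower in every MuRF1 -/- heart and 0 higher, against 10.1% and 9.34% of all genes, among them Adgre1, Aif1, Ccl6, Cd52, Lgals3, Lyz2, Ptprc and Tyrobp. The second Aif1 probe differed by 0.00 ± 0.075. The endothelial and fibroblast lists were lower in MuRF1 -/- hearts by more than the members, with medians of -0.58 and -0.64 and no call. Their means did not overlap between genotypes, at 0.60 to 1.85 against 0.32 to 0.43 for endothelial and -2.15 to -1.24 against -2.40 to -2.29 for fibroblast genes, and their part in the members' values was not tested. Without MuRF1 +/+ 8-week replicate 1 there were 6 calls, against 21.3% of all genes. Without replicate 3 there was 1, against 1.48%, and with weighted arrays there were 7, against 28.4%. On the 2 slides with both groups, 29 and 27 of 35 members were lower. The Y-linked level at 8 weeks was -0.62 to -0.35 in MuRF1 +/+ hearts, and 1.05, -0.56 and 0.95 in MuRF1 -/- hearts. Genotype and Y-linked level can therefore not be fully told apart here. With that level as a covariate the member median was -0.24, and its part in the members' values was not tested further.

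On chow and at 3 weeks no member passed the test between genotypes. The comparison on chow had no call (limma, 5 members at an unadjusted p under 0.05, against 3.18% of all genes, and 0.0892% of all genes called), where 28 of 35 members were higher in MuRF1 -/- hearts and the extremes were Cd52 at 0.52 ± 0.16 and Cd14, the lipopolysaccharide co-receptor, at -0.28 ± 0.12. The median on chow was 0.14, and it was 0.03 without MuRF1 -/- replicate 1 and 0.05 without MuRF1 +/+ replicate 1. On the 2 slides that held both groups it was 0.46 and -0.03. Aif1 was higher without overlap and Cd14 lower, against 6.05% and 6.28% of all genes. At 3 weeks no member was called either (limma, smallest adjusted p 0.666, 3 members at an unadjusted p under 0.05, against 5.31% of all genes, and 0.398% of all genes called), the differences ran from -0.20 for Mrc1 to 0.44 for Ccl6, and the median was 0.05; without overlap Cd52 was higher and Csf1r lower, against 2.57% and 1.72% of all genes. The difference of the 3-week responses had no call among the members or among all genes (0%), no member at an unadjusted p under 0.05 (limma, against 2.45% of all genes), and ran from -0.53 for H2-Ab1 to 0.20 for Lyz2.

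After 3 weeks of fenofibrate a few members fell in each genotype, C1q and class II genes among them, and none rose by its brightest probe. As shares of the members, both counts were smaller than those of all genes called in either direction. In MuRF1 +/+ hearts 3 of 35 members fell (C1qa, C1qb and H2-Aa), against 24.2% of all genes called in either direction, 12.0% higher and 12.3% lower; 4 members had an unadjusted p under 0.05, against 36.3% of all genes. The knockout had 7 of 35 members that fell: the same C1qa, C1qb and H2-Aa, and also H2-Ab1, H2-Eb1, Cd68 and Cd53, against 26.4% of all genes called, 14.3% higher and 12.1% lower; 12 members had an unadjusted p under 0.05, against 37.6%. Without overlap, 0 members were higher and 9 lower than chow in MuRF1 +/+ hearts, against 23.4% and 22.0% of all genes, and 0 higher and 5 lower in MuRF1 -/- hearts, against 17.3% and 14.8%. The member medians were -0.07 and -0.12, against 0.01 and -0.01 over all genes. The endothelial mean was 0.66 to 0.90 at 3 weeks against 0.36 to 0.40 on chow in MuRF1 +/+ hearts, and 0.59 to 0.99 against 0.31 to 0.50 in MuRF1 -/- hearts. The fibroblast mean was -1.83 to -1.49 against -2.24 to -2.12, and -1.85 to -1.42 against -2.28 to -1.77, with 4 of 13 genes called higher in each genotype. Of 6 smooth muscle genes 3 were called lower in each genotype, with medians of -0.37 and -0.52. The part of these lists in the members' values was not tested.

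C1qa, whose product assembles with those of C1qb and C1qc into C1q, was 0.73, 0.80 and 0.82 on chow, 0.16, 0.07, 0.44 and -0.01 at 3 weeks and 0.48, 0.17 and 0.50 at 8 weeks in MuRF1 +/+ hearts. In MuRF1 -/- hearts it was 0.89, 0.82 and 0.63 on chow, 0.09, 0.11, 0.40 and -0.14 at 3 weeks and 0.49, 0.12 and 0.16 at 8 weeks. The 3-week hearts lay below the chow hearts in both genotypes, with differences of -0.62 ± 0.13 (limma adjusted p = 0.00227) and -0.67 ± 0.13 (adjusted p = 0.00118). C1qb was 0.28, 0.52 and 0.28 on chow, 0.07, -0.09, 0.11 and -0.28 at 3 weeks and 0.32, 0.04 and 0.09 at 8 weeks in MuRF1 +/+ hearts. The MuRF1 -/- levels of C1qb were 0.54, 0.46 and 0.17 on chow, -0.05, -0.03, 0.18 and -0.15 at 3 weeks and 0.24, -0.24 and -0.12 at 8 weeks. Its differences at 3 weeks were -0.41 ± 0.13 and -0.40 ± 0.13 (adjusted p = 0.0262 and 0.0287), with 1 overlapping heart in the knockout. C1qc at 3 weeks was -0.11, -0.01, 0.12 and 0.05 in MuRF1 +/+ and 0.08, -0.03, 0.22 and -0.05 in MuRF1 -/- hearts, and its differences of -0.26 ± 0.11 and -0.26 ± 0.11 did not pass.

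The class II genes H2-Aa, H2-Ab1 and H2-Eb1 encode the chains that hold peptides, and Cd74 the invariant chain that guards them. H2-Aa was 0.71, 1.08 and 1.21 on chow, 0.68, 0.53, 0.28 and 0.40 at 3 weeks and 0.71, -0.06 and 0.31 at 8 weeks in MuRF1 +/+ hearts. Knockout levels of H2-Aa were 1.19, 0.97 and 1.07 on chow, 0.38, 0.72, 0.90 and 0.12 at 3 weeks and 0.56, 0.33 and 0.54 at 8 weeks. All treated hearts of both genotypes lay at or below the lowest chow heart of their genotype, with differences of -0.53 ± 0.18 and -0.68 ± 0.19 in MuRF1 +/+ (limma adjusted p = 0.0349 and 0.0231) and -0.54 ± 0.18 at 3 weeks in MuRF1 -/- (adjusted p = 0.029). H2-Ab1 was 2.04, 1.76 and 1.62 on chow and 0.95, 1.64, 1.31 and 0.59 at 3 weeks in MuRF1 -/- hearts, with 1 overlapping heart (-0.68 ± 0.22, adjusted p = 0.026). Its MuRF1 +/+ levels of 1.05, 1.81 and 1.41 on chow and 1.33, 1.14, 1.25 and 1.37 at 3 weeks overlapped (-0.15 ± 0.22). H2-Eb1 was 1.39, 1.20 and 1.24 on chow and 0.57, 1.15, 0.97 and 0.21 at 3 weeks in the knockout (-0.55 ± 0.18, adjusted p = 0.034). For H2-Eb1 the MuRF1 +/+ levels were 0.60, 1.30 and 1.22 on chow and 0.93, 0.57, 0.78 and 0.67 at 3 weeks (-0.30 ± 0.18). All 4 class II genes were below chow on average in both genotypes at 3 and at 8 weeks. By the brightest probe, 1 of them was called in MuRF1 +/+ hearts at each time, 3 at 3 weeks in MuRF1 -/- hearts and none at 8 weeks there, where the differences ran from -0.79 to -0.60. H2-Aa was well above background on 2 of the 3 MuRF1 +/+ arrays at 8 weeks and on 3 of the 4 MuRF1 -/- arrays at 3 weeks. A second, dimmer H2-Aa probe differed by -0.4 at 3 weeks and -0.48 at 8 weeks in MuRF1 +/+ hearts. Neither difference passed (limma adjusted p = 0.0543 and 0.0505). For H2-Ab1, 3 further probes fell at 3 weeks in both genotypes, by 0.47, 0.48 and 0.67 in MuRF1 +/+ and by 0.58, 0.90 and 1.00 in MuRF1 -/- hearts, each past the threshold. At 8 weeks 1 of these passed in MuRF1 +/+ (-0.54 ± 0.17, limma adjusted p = 0.0471) and another in MuRF1 -/- hearts (-0.83 ± 0.18, adjusted p = 0.0279).

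Cd68, a lysosomal protein of macrophages, was 0.43, 0.07 and 0.04 on chow and -0.12, -0.10, -0.24 and -0.08 at 3 weeks in MuRF1 -/- hearts. MuRF1 +/+ levels of Cd68 were -0.01, 0.05 and -0.02 on chow and -0.12, -0.23, -0.02 and -0.16 at 3 weeks. The knockout groups did not overlap (-0.31 ± 0.085, limma adjusted p = 0.0112), and without chow replicate 1 the difference was -0.19. Cd53 was 0.24, 0.04 and -0.02 on chow and -0.16, -0.17, -0.24 and -0.01 at 3 weeks in the same groups (-0.23 ± 0.077, adjusted p = 0.0307), but only 1 of these 3 chow arrays and 2 of the 4 arrays at 3 weeks measured it well above background. The 3-week counts depended on single hearts: there was 1 call in MuRF1 -/- hearts without chow replicate 1, 2 without 3-week replicate 1, and 3 without 3-week replicate 4 or without chow replicate 2. In MuRF1 +/+ hearts there was 1 call without chow replicate 3, without 3-week replicate 2 or without 3-week replicate 4. Over the fits that left out 1 heart, 2330 to 3979 of all genes were called in MuRF1 -/- and 1964 to 3020 in MuRF1 +/+ hearts. Under the Y-linked covariate there was no call in either genotype at 3 weeks, against 1.7% and 2.26% of all genes. Of 15 dimmer probes of the members, 5 were called at 3 weeks in MuRF1 +/+ and 7 in MuRF1 -/- hearts. By their brightest probe, 24.2% and 26.4% of all genes were called. The share of all probes called in the fit of the dimmer probes was not counted, so these counts show nothing particular to the members. Besides those of H2-Ab1 they were probes of Csf1r in both genotypes (-0.27 and -0.40), of Lyz2 in MuRF1 +/+ (-0.34, against 0.17 by the brightest probe), and of H2-Aa (-0.59), Coro1a (-0.38) and Mpeg1 (0.60, higher than chow) in MuRF1 -/- hearts. Within slides, C1qa differed by -0.57 and -0.73 in MuRF1 +/+ hearts and by -0.23, -0.79 and -0.72 in MuRF1 -/- hearts, whereas H2-Aa differed by -0.03 and -0.56, and by -0.17, -0.81 and -0.25.

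**Figure D5:**
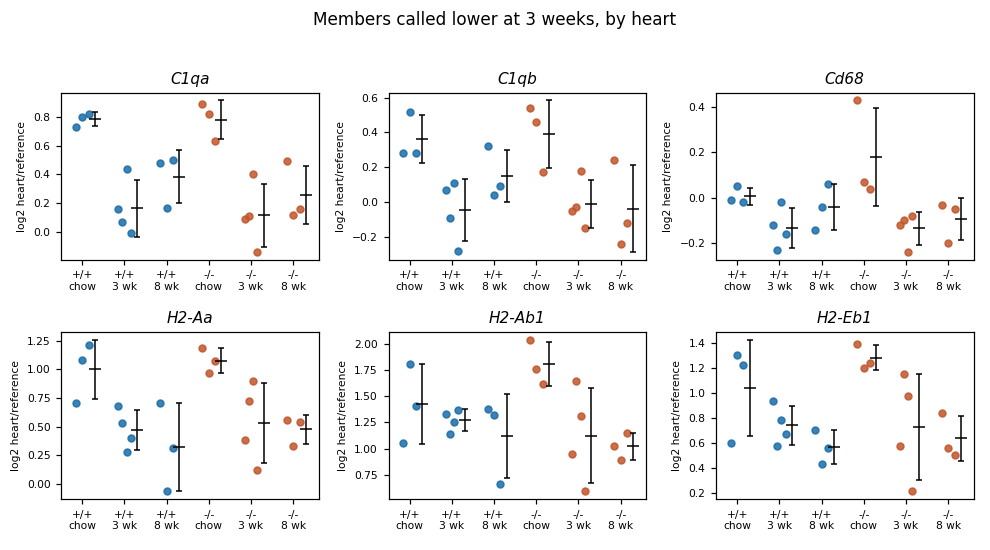
Log2 ratio of heart over reference (vertical axis, a separate range per gene) for 6 members called lower at 3 weeks in MuRF1 -/- hearts, of which C1qa, C1qb and H2-Aa were also called in MuRF1 +/+ hearts. Points are single hearts, blue for MuRF1 +/+ and orange for MuRF1 -/-, and bars give mean ± SD (n = 3 on chow, 4 at 3 weeks, 3 at 8 weeks). The 3-week points of C1qa lie below the chow points in both genotypes.

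Promoters of the members were read from RefSeq (GRCm38.p6), where 30 of the 41 members had a window. Of 5 motifs searched on both strands in the 250 bases before the start, 2 were found in members: GATTGG, the core of the box that NF-Y binds in class II promoters, and GAGGAAGT, a core of sites bound by the myeloid factor PU.1. The 200 bases before the start are shown for both class II genes that held a box and for both members that held a PU.1 core, 5′ to 3′ on the gene's strand, with the matched letters, or their reverse complement, in capitals.
H2-Aa, chr17:34287824-34288023 (minus strand): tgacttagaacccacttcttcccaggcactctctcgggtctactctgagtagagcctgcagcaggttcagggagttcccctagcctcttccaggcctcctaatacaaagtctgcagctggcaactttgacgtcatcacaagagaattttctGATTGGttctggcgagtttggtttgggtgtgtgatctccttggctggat
H2-Eb1, chr17:34305667-34305866 (plus strand): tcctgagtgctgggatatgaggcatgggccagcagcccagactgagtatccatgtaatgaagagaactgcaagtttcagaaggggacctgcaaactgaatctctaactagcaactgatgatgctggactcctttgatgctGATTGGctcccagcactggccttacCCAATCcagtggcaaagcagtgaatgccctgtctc
C1qc, chr4:136892915-136893114 (minus strand): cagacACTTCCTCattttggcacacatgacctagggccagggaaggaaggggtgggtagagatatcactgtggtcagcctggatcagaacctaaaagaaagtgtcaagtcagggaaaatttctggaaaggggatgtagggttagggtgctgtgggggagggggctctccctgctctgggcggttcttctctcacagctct
S100a8, chr3:90668871-90669070 (plus strand): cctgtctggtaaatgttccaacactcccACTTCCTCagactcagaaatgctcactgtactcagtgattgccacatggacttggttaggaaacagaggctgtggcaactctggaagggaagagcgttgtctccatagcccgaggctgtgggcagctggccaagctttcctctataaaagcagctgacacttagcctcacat

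The first base of the NF-Y box lay 49 bases before the start of H2-Aa and 60 and 35 bases before that of H2-Eb1, the latter in reverse. Cd163, Cd53 and Cd68 also held the box, 58, 118 and 84 bases before their starts, which makes 5 of 30 members, against 14.6% of 32851 RefSeq windows of the same length. The PU.1 core lay 195 bases before the start of C1qc and 172 before that of S100a8, both in reverse, that is in 2 of 30 members, against 2.44% of all windows. TTGCGCAA (C/EBP), the NF-kappaB consensus and the PPAR direct repeat with 1 spacer base matched no member, against 0.164%, 0.14% and 0.0335% of all windows. These matches are letters in a window; binding was not measured.

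Between 3 and 8 weeks of fenofibrate 7 members were called in MuRF1 +/+ and 8 in MuRF1 -/- hearts, and whether this change differed between genotypes was not tested. In MuRF1 +/+ hearts 6 of 35 rose (Ccl6, Ccl9, S100a8, S100a9, Cd163 and Laptm5) and Aif1 fell, against 17.5% of all genes called in either direction, 7.89% higher and 9.58% lower, with a member median of 0.05; 8 members had an unadjusted p under 0.05, against 30.9%. There 7 members were higher and 1 lower without overlap, against 10.9% and 13.5% of all genes. Of the 35 members 8 fell and none rose in MuRF1 -/- hearts, against 31.5% of all genes called, 13.5% higher and 18.0% lower, with a median of -0.10; 13 had an unadjusted p under 0.05, against 41.7%. Those 8 were Aif1, Lyz2, Tyrobp, Cd52, Cd74, Adgre1, Coro1a and Ptprc. Xist also differed between these times, by -1.59 ± 0.32 in MuRF1 +/+ (limma adjusted p = 0.0022) and by -3.44 ± 0.32 in MuRF1 -/- hearts (adjusted p = 8.38e-07), although all MuRF1 +/+ hearts at both times had low Y-linked levels. Its part in the members' values was not tested.

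The rises from 3 to 8 weeks in MuRF1 +/+ hearts were 0.99 ± 0.19 for Ccl6 (limma adjusted p = 0.00125), 0.55 ± 0.13 for Ccl9 (adjusted p = 0.00514), 1.30 ± 0.36 for S100a9, 0.78 ± 0.22 for S100a8 and 0.57 ± 0.19 for Cd163. Laptm5, a lysosomal membrane protein of blood cells, was -0.27, -0.31, -0.18 and -0.21 at 3 weeks and -0.04, 0.53 and 0.05 at 8 weeks, after -0.11, -0.02 and -0.06 on chow (0.42 ± 0.11, adjusted p = 0.0112). A second, dimmer Laptm5 probe differed by 0.18 ± 0.1 from 3 to 8 weeks in MuRF1 +/+ hearts and did not pass (limma adjusted p = 0.24). In MuRF1 -/- hearts Laptm5 was 0.27, 0.05 and -0.05 on chow, -0.15, -0.27, -0.06 and -0.01 at 3 weeks and 0.01, -0.04 and -0.13 at 8 weeks by its brightest probe. In MuRF1 +/+ hearts Aif1 fell by 0.32 from 3 to 8 weeks (limma adjusted p = 0.0245), with every 8-week heart below every 3-week heart. Without 8-week replicate 2 there were 4 calls, S100a9 differed by 0.57 (adjusted p = 0.0451), S100a8 by 0.44 (0.113), Cd163 by 0.29 (0.241) and Laptm5 by 0.25 (0.0571), while without 3-week replicate 1 there were also 4 calls. Of all genes 2738 and 1719 were called in these fits. Ccl6 and Ccl9 held under all 21 alternatives run for them. On the 2 slides with both groups, Ccl6 differed by 0.83 and 1.52 and Ccl9 by 0.31 and 0.92. Of the endothelial genes 2 were called higher at 8 weeks (median 0.40), and their part was not tested.

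In the knockout, Tyrobp (DAP12, the signalling adaptor of myeloid receptors) was 0.24, -0.06 and -0.32 on chow, 0.21, 0.03, 0.24 and -0.01 at 3 weeks and -0.33, -0.56 and -0.46 at 8 weeks. It fell between 3 and 8 weeks by 0.57 (limma adjusted p = 0.00131), without overlap and under all 21 alternatives, and was -0.39, -0.06 and -0.31 on chow, -0.11, -0.21, -0.19 and 0.02 at 3 weeks and -0.16, -0.18 and -0.27 at 8 weeks in MuRF1 +/+ hearts. Lyz2 (lysozyme M) was 0.18, -0.23 and -0.93 on chow, 0.41, -0.13, 0.23 and -0.34 at 3 weeks and -0.71, -0.99 and -0.61 at 8 weeks in the knockout. The MuRF1 +/+ levels of Lyz2 were -0.44, -0.07 and -0.50 on chow, -0.07, -0.32, -0.22 and -0.06 at 3 weeks and 0.14, -0.28 and -0.40 at 8 weeks. The fall of Lyz2 between 3 and 8 weeks was called for the brighter of its 2 probes (-0.81 ± 0.22, adjusted p = 0.0095), while the dimmer probe differed by 0.09 ± 0.11 in the other direction. A Lyz2 probe can also bind the near-identical Lyz1, so this value is uncertain. Cd74 was 1.34, 1.23 and 1.19 on chow, 1.17, 1.57, 1.15 and 0.78 at 3 weeks and 0.76, 0.50 and 0.69 at 8 weeks in the knockout (-0.52 ± 0.15 from 3 to 8 weeks, adjusted p = 0.0148). For Cd74 the MuRF1 +/+ levels were 0.64, 1.24 and 0.81 on chow, 0.99, 0.71, 0.81 and 0.80 at 3 weeks and 0.97, 0.82 and 0.67 at 8 weeks.

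Ptprc (CD45, the phosphatase of all leukocytes) was -0.15, -0.32 and -0.50 on chow, -0.26, -0.33, -0.38 and -0.07 at 3 weeks and -0.40, -0.53 and -0.60 at 8 weeks in the knockout. MuRF1 +/+ levels of Ptprc were -0.52, -0.25 and -0.49 on chow, -0.21, -0.38, -0.16 and -0.23 at 3 weeks and -0.34, -0.30 and -0.33 at 8 weeks. The fall of Ptprc from 3 to 8 weeks in the knockout was small (-0.25 ± 0.095, limma adjusted p = 0.048). In the same knockout hearts Coro1a, the leukocyte coronin, was -0.40, -0.77 and -1.10 on chow, -0.88, -0.77, -0.95 and -0.92 at 3 weeks and -0.99, -1.35 and -1.43 at 8 weeks (-0.38 ± 0.13, adjusted p = 0.04), and -1.09, -0.82 and -1.0 on chow, -0.91, -1.0, -0.87 and -0.87 at 3 weeks and -0.93, -0.76 and -1.04 at 8 weeks in MuRF1 +/+ hearts. The second Coro1a probe differed by -0.04 in the knockout. For Aif1, Cd52 and Adgre1 the same contrast gave -0.67 ± 0.094, -0.55 ± 0.15 and -0.50 ± 0.13. In all, 11 of 35 members were lower in every 8-week than in every 3-week knockout heart, against 22.0% of all genes, and 0 were higher, against 17.8%. The endothelial mean was 0.59 to 0.99 at 3 weeks and 0.32 to 0.43 at 8 weeks in these hearts, and the fibroblast mean -1.85 to -1.42 and -2.40 to -2.29. Neither overlapped, 6 genes of each list were called lower, and their part in the members' values was not tested. Without 8-week replicate 2 there were 3 calls (23.4% of all genes), and 2 (Aif1 and Tyrobp) after the Y-linked level was added to the model. That last fit called 1824 of all genes. The 2 slides with both groups held 1 heart of each. On the slide where both knockout hearts had low Y-linked levels, 28 of 35 members were lower at 8 weeks, with Aif1 at -0.62, Lyz2 at -0.86 and Tyrobp at -0.59. On the other, with Y-linked levels of -0.18 at 3 weeks and 0.95 at 8 weeks, 23 of 35 members were lower. The median differences were -0.16 and -0.11.

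The other 13 tested members were called in no comparison by their brightest probe. By role they were Csf1r and Mpeg1 of the macrophage genes, Mrc1 and Cd14, Itgb2, the Fc receptor genes Fcgr1, Fcgr2b, Fcgr3 and Fcer1g, Ccl2 and Ccr2, and Ctss and Lgals3. From 3 to 8 weeks in the knockout, dimmer probes of Csf1r (0.21, adjusted p = 0.0461) and Mpeg1 (-0.62, adjusted p = 0.039) passed, each turned against its 3-week difference given above. Fcer1g, the common gamma chain of Fc receptors, was -0.29, -0.03 and -0.25 on chow, -0.22, -0.12, -0.21 and -0.10 at 3 weeks and -0.10, -0.25 and -0.30 at 8 weeks in MuRF1 +/+ hearts. Knockout levels of Fcer1g were 0.27, -0.09 and -0.22 on chow, -0.20, -0.19, -0.09 and -0.25 at 3 weeks and -0.19, -0.55 and -0.53 at 8 weeks. Itgb2, among the dimmest members, was 0.15, 0.18 and 0.10 on chow, 0.13, -0.02, -0.01 and -0.03 at 3 weeks and 0.12, 0.03 and 0.17 at 8 weeks in MuRF1 +/+ hearts. For Itgb2 the knockout levels were 0.19, 0.17 and 0.04 on chow, -0.03, 0.03, 0.15 and -0.01 at 3 weeks and 0.00, -0.12 and 0.13 at 8 weeks. Ccl2, the monocyte attractant, was 1.10, 0.53 and 0.44 on chow and -0.05, -0.11 and 0.04 at 8 weeks in the knockout, without overlap (-0.73 ± 0.19, limma adjusted p = 0.0595), and 0.25, 0.28 and 0.52 on chow and 0.76, -0.14 and -0.17 at 8 weeks in MuRF1 +/+ hearts (-0.20 ± 0.19). Its receptor gene Ccr2 differed by -0.27 and -0.22 in these comparisons. Over the 5 Fc receptor and adaptor genes, Tyrobp included, the median 8-week difference was 0.00 in MuRF1 +/+ and -0.40 in MuRF1 -/- hearts, with 0 of 5 called in either genotype.

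The sizes above are compressed for dim members, because an offset of 50 was added to each intensity before the logarithm. In Agilent's own log ratio, which has no such offset, 32 of the 35 member calls had a larger difference, by a median of 1.61 times, and 22 were over 1.5 times as large. Aif1 in the knockout at 8 weeks was -1.60 there, Ccl6 in MuRF1 +/+ hearts at 8 weeks 1.32 and S100a8 1.73, while S100a9 at 1.31 was slightly smaller than in the main values. H2-Aa was -1.76 at 8 weeks in MuRF1 +/+ hearts with an adjusted p of 0.258, and 2 of those 3 arrays measured it well above background.

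Other leukocyte genes were read from 12 further lists, of which 141 of 237 genes were tested. In MuRF1 +/+ hearts 11 rose and 9 fell at 3 weeks, against 12.0% and 12.3% of all genes. They were led by Il15 (-1.75 ± 0.23), Cd83 (0.64 ± 0.092), Tgfb1 (-0.35 ± 0.06), Lgmn (0.64 ± 0.13), Ccl11 (-0.52 ± 0.14) and Cyba (-0.30 ± 0.086). At 8 weeks 7 rose and 4 fell, against 5.26% and 8.74% of all genes. Among them were Cebpb (C/EBP beta, a transcription factor of macrophages and of many other cells) at 1.60 ± 0.24, Il15 at -1.18 ± 0.25, C1ra at 0.62 ± 0.16, Blnk at -0.51 ± 0.13 and Retnlg at 0.75 ± 0.20. Of the 141 genes 11 rose and 13 fell in MuRF1 -/- hearts at 3 weeks, against 14.3% and 12.1% of all genes. They included Tgfb1 (-0.36 ± 0.06), Ccl11 (-0.67 ± 0.14), Cyba (-0.41 ± 0.086), Lgmn (0.61 ± 0.13), Cxcl14 (-1.26 ± 0.27) and Cxcl9 (0.75 ± 0.17). At 8 weeks 1 rose and 8 fell in these hearts, against 0.851% and 0.982% of all genes. Cebpb rose by 1.20 ± 0.24, and those that fell included Pf4 (-0.96 ± 0.18), a chemokine of platelets that macrophages also express, S100a4 (-1.14 ± 0.23), Ccl7 (-0.70 ± 0.15), Ms4a7 (-0.44 ± 0.096) and Ptpn18 (-0.78 ± 0.17). Cebpb thus rose in both genotypes while most macrophage members of the knockout were below chow.

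From 3 to 8 weeks, 13 of these 141 genes rose and 3 fell in MuRF1 +/+ hearts, against 7.89% and 9.58% of all genes. They were led by Cebpb (2.26 ± 0.23), Cd83 (-0.65 ± 0.092), Lgmn (-0.74 ± 0.13), Tgfb1 (0.34 ± 0.06), Cyba (0.47 ± 0.086) and Ighm (-0.45 ± 0.095). The knockout hearts had 6 that rose and 27 that fell, against 13.5% and 18.0% of all genes. Those with the smallest adjusted p were Lgmn (-0.90 ± 0.13), Cebpb (1.57 ± 0.23), Cxcl9 (-1.0 ± 0.17), Lyn (-0.63 ± 0.11), Ccl19 (-1.11 ± 0.19) and Cfp (-0.90 ± 0.16). Between genotypes, Il15 on chow (-1.81 ± 0.25, limma adjusted p = 0.00189) was the 1 call, and neither the 3-week and 8-week genotype comparisons nor the differences of the responses held any. At 8 weeks 22 of the 141 were higher in MuRF1 -/- than in MuRF1 +/+ hearts, against 44.2% of all genes, with a median difference of -0.17. Of 26 T and NK cell genes 8 were tested, and of 18 B and plasma cell genes 9.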

How the data were processed

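Heart RNA (Cy5) and a pool of whole pups (Cy3) were hybridised on 20 Agilent 2-colour arrays (design 014868) and scanned with Feature Extraction 9.5.3.1, per the file headers. One protocol in the labels names Cy3 for the hearts, whereas the channel labels name Cy5, and the direction of Trim63 follows the channel labels. The deposited files hold intensities per channel, spot flags, and Agilent's log10 ratio, per the file headers. The authors' deposited series matrix holds log2 values whose scaling is not stated: slopes against Agilent's ratio ran from 0.75 to 0.877, and 0.43 on MuRF1 -/- chow replicate 2, and column medians from -0.00598 to 0.00933.

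Intensities were background-corrected (normexp, offset 50), loess-normalised within arrays, and control and outlier spots left out. On MuRF1 -/- chow replicate 2, the background fit omitted 7 spots with a background over 50 above their signal, which differs from the design written beforehand, and the fit on all spots is an alternative. Probes were named through RefSeq (GRCm38.p6) by accession (22951 probes), symbol (6659) or synonym (3109), with 8455 keeping the file's name. The brightest heart probe stood for a gene, and genes well above background on at least 3 arrays were tested: 14567 of 27670. A model of 6 group means was fitted with limma 3.58.1 in R 4.3.3 (lmFit, eBayes with trend), with Benjamini-Hochberg adjustment within each of 11 comparisons at 0.05. On simulated data for the 8-week MuRF1 +/+ comparison, 95% of genes changed by a log2 of 1 were recovered and 100% of those changed by 2. The simulated noise was independent between genes, with 1 SD per gene in all groups. It held no shift shared by the genes of a heart and no unequal spread between groups, so these shares may overstate recovery in the real hearts.

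The members and gene lists were chosen with earlier results of these data known. Values in every heart were given for called members and 11 preset genes, and the largest differences in each direction were named. Nothing says whether hearts of a group came from separate litters. The alternatives covered background, scaling, filters, probes, samples, slide, replicate number, Y-linked level and array weights. The 5 slides were assigned by the scan date in the file headers. The barcode in the headers named another slide on 4 arrays and was blank on 4.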

Additional observations from a re-analysis of the deposited data

Results flagged for a closer look

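In the groups of 4 hearts, 5 of 70 sets of values had 1 heart whose gap to the others exceeded the 95% critical value of Dixon's test, where chance gives about 1 in 20. In the 3-week MuRF1 -/- group, replicate 4 had the highest S100a8, at -2.12 against -2.98 to -2.91 in the other hearts, and the highest S100a9, at -4.07 against -4.92 to -4.83. This array is 1 of the 2 that stood apart in the share of probes above background (34.3%), and the part of that in these values was not tested. In the same group, Cd52 was lowest in replicate 1, at 0.01 against 0.15 to 0.17. In the 3-week MuRF1 +/+ group, Itgb2 was highest in replicate 1, at 0.13 against -0.03 to -0.01, and Cd53 was lowest in replicate 2, at -0.16 against -0.08 to -0.06, on arrays where Cd53 was not well above background.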

How the results depend on the processing

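Across 14 alternatives and each heart left out in turn, the 35 member calls gave 724 values, of which 517 kept their call, 207 lost it and 0 changed sign. Leaving out 1 heart moved the counts of called members over 1 to 3 (MuRF1 +/+ at 3 weeks), 2 to 10 (MuRF1 +/+ at 8 weeks), 1 to 7 (MuRF1 -/- at 3 weeks), 1 to 7 (MuRF1 -/- at 8 weeks), 4 to 6 and 3 to 9 (8 against 3 weeks in MuRF1 +/+ and -/-), 0 to 6 (genotype at 8 weeks) and 0 to 3 (difference of the 8-week responses). In the same order, the counts over all genes moved over 1964 to 3020, 634 to 4780, 2330 to 3979, 73 to 148, 1719 to 2738, 3227 to 4812, 1 to 3099 and 0 to 1411. The cause of the changes below was not tested. The calls over all genes moved with the setting too. A member count without an all-gene count for the same fit therefore shows no change particular to the members. For MuRF1 +/+ at 3 weeks the count was 1 with Agilent's ratio (24.4% of all genes) and 1 with the series matrix (17% of all genes). It was 5 with the mean of all probes, 7 with only the groups compared, 0 with the Y-linked covariate and 9 with array weights. For MuRF1 +/+ at 8 weeks it was 0 with only the groups compared, 0 with the Y-linked covariate and 13 with array weights. For MuRF1 -/- at 3 weeks it was 2 with normexp on all spots, 1 with the series matrix, 1 with only the groups compared, 4 with the slide as a block, 0 with the Y-linked covariate and 11 with array weights. For MuRF1 -/- at 8 weeks it was 2 with normexp on all spots, 9 with Agilent's ratio, 2 without a filter on dim probes, 10 with only the groups compared, 13 without the 2 arrays that stood apart, 1 with the slide as a block, 2 with the Y-linked covariate and 17 with array weights. From 3 to 8 weeks in MuRF1 +/+ hearts it was 4 with normexp on all spots, 4 with the series matrix, 2 with only the groups compared, 4 with the slide as a block and 14 with array weights, and in MuRF1 -/- hearts 5 with normexp on all spots, 2 with the Y-linked covariate and 16 with array weights. Array weights gave 7 calls between genotypes at 8 weeks and 15 for the difference of the 8-week responses. The member median at 8 weeks was -0.67 in MuRF1 -/- hearts with Agilent's ratio, -0.43 and -0.33 between genotypes with Agilent's ratio and the series matrix, and -0.69 for the difference of responses with Agilent's ratio. Counts over all genes (14567 in the main fit) ran from 51 (Y-linked covariate) to 6928 (array weights) for MuRF1 +/+ at 8 weeks and from 60 (slide block) to 1291 (array weights) for MuRF1 -/- at 8 weeks. At 3 weeks they ran from 247 to 6913 in MuRF1 +/+ and from 329 to 5554 in MuRF1 -/- hearts (Y-linked covariate and array weights). From 3 to 8 weeks they ran from 1027 (only the groups compared) to 6262 (array weights) in MuRF1 +/+ hearts. In MuRF1 -/- hearts they ran from 1824 (Y-linked covariate) to 7172 (array weights). Array weights gave 4139 genes between genotypes at 8 weeks and 2922 for the difference of the 8-week responses. Same-numbered hearts had correlations of -0.58 to 0.45 over 46 pairs, 16 of them over 0.1. These values showed no pairing by number. They are deviations from means of 3 or 4 hearts, so they cannot exclude it. With the replicate block the counts were 1 for MuRF1 +/+ and 3 for MuRF1 -/- at 3 weeks, and 25 of 35 calls were kept.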
